A study of Homo sapiens with 6 samples.

Results

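The 10 genes described here are imprinted genes that are normally expressed from the copy inherited from the father and that lie at 8 loci outside the large imprinted clusters: PEG10, SGCE, MEST, PEG3, ZIM2, PLAGL1, ZDBF2, DIRAS3, NAP1L5 and NNAT. They were chosen by name, and all 10 of the 10 symbols had a row among the 35974 genes of the deposited table. RNA came from SU-DHL-8, an established line of diffuse large B-cell lymphoma that the labels give as lymph node tissue with the DNMT1 wild type genotype. Of the 6 poly(A) RNA sequencing libraries, 3 came from cells given the solvent DMSO and 3 from cells given GSK3685032, which blocks the DNA methyltransferase DNMT1. The genotype was the same in both groups, and the sources used here give neither the dose nor the time of exposure. The treatment label of inhibitor replicate 1 carries the name in the series design, whereas inhibitor replicate 2 is labelled GSK3685033 and inhibitor replicate 3 GSK3685034. All 3 were kept in 1 group, and each gene is given for every library so that replicate 1 can be read alone.

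Imprinted genes keep DNA methylation on the copy from 1 parent at a control region, and that mark, laid down in the egg or sperm, sets which copy is transcribed. At most of these loci the maternal copy carries the mark over the promoter, and the unmarked paternal copy gives the RNA. DNMT1 copies the mark to the new strand at each cell division, and the zinc finger protein ZFP57 binds the methylated hexamer TGCCGC and protects such regions in the early embryo. Expression by parent cannot be read from these data, which give the sum of both copies of a gene.

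Promoter windows were looked at first, because the mark of several of these genes lies there. RefSeq promoters on GRCh38.p14, from 250 bases before to 50 bases after a start site, were on hand for 5 of the 10 members: DIRAS3, MEST, NAP1L5, PLAGL1 and ZDBF2. These genes had 14 windows between them, and the window richest in CpG dinucleotides was taken for each. The sequences of 4 of them are shown, MEST and ZDBF2 for members close to silent with DMSO and PLAGL1 and NAP1L5 for members already expressed with DMSO. They run 5′ to 3′ on the gene's strand, at chr7:130491835-130492134 (+) for MEST, chr2:206274760-206275059 (+) for ZDBF2, chr6:144008210-144008509 (-) for PLAGL1 and chr4:88697780-88698079 (-) for NAP1L5. Capitals mark TGCCGC on either strand, and overlapping hits run together.
MEST: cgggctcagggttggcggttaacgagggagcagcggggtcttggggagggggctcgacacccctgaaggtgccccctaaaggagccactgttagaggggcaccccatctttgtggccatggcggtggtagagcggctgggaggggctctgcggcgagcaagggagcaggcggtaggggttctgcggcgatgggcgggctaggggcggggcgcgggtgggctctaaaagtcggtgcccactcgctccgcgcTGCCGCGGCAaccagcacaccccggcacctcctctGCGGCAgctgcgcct
ZDBF2: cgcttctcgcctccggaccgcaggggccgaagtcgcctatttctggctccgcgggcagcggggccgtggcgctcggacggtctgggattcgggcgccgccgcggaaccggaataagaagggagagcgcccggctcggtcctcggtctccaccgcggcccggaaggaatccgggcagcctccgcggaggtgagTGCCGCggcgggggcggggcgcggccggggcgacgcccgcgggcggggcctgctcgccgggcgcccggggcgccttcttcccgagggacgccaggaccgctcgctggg
PLAGL1: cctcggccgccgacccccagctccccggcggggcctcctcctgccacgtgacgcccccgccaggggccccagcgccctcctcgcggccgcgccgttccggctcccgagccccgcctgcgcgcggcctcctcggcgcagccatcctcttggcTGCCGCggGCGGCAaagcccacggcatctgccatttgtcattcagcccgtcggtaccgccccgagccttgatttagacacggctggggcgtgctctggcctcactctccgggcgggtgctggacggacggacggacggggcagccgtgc
NAP1L5: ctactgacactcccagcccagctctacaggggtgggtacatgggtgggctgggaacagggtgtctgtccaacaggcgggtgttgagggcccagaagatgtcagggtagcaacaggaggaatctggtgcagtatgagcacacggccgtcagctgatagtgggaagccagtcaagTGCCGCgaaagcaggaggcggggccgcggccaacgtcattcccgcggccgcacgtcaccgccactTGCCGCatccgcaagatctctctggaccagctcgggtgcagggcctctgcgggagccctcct

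The 5 windows held 50 CpGs in ZDBF2, 39 in PLAGL1, 25 in MEST, 21 in DIRAS3 and 18 in NAP1L5, against a median of 16 in the richest window of 27305 genes. TGCCGC occurred 3 times in MEST, 2 times each in PLAGL1, NAP1L5 and DIRAS3, and 1 time in ZDBF2. Among the richest windows of all genes, 17.9% held the hexamer, 2.98% held it at least 2 times and 0.483% at least 3 times. In MEST and DIRAS3 a pair of the hits was the same run read on both strands, TGCCGCGGCA, in which they overlap by 2 bases. All 5 windows therefore lay above the median for CpG, and 4 of 5 held the hexamer more than 1 time. The 5 members had 14 windows and the 27305 genes 35116, so members had more windows to choose from, which can raise both values. The hexamer itself holds a CpG, and the shares over all genes were not matched for CpG content. These are letter matches in 300 bases, described with no test, and no methylation was measured here.

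**Figure D1:**
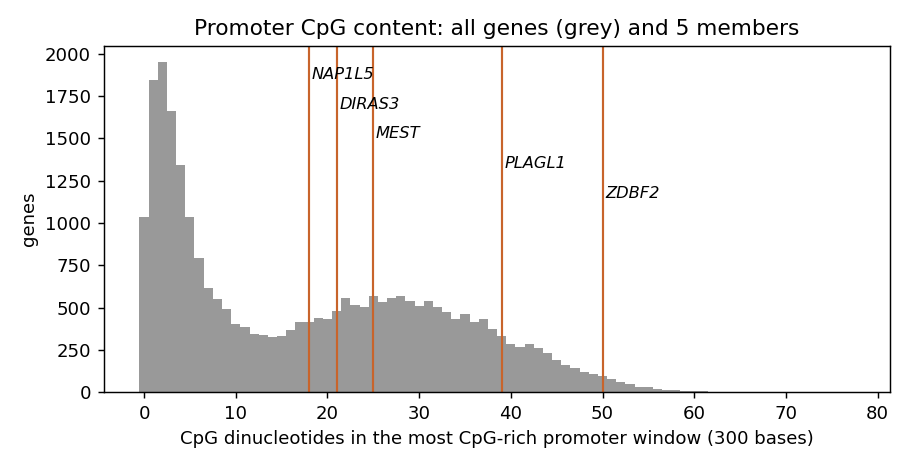
CpG dinucleotides (x axis) in the most CpG-rich 300-base RefSeq promoter window of each of 27305 genes, as a count of genes per value (y axis), with vertical lines at the 5 imprinted genes that have a window. ZDBF2 (50) and PLAGL1 (39) lie in the upper tail, at or above 98.8% and 90.9% of genes, and NAP1L5 (18) lies just above the median of 16.

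The deposited values are an estimated count and an FPKM, which scales fragments to gene length and library size, for each gene and library. Total counts ran from 57451935 to 75304441 with DMSO and from 53846028 to 56795603 with the inhibitor, and about 4 counts were taken as 1 read pair. The B-cell identity was checked with 8 markers, all of which were in the table at 2.37 FPKM or more in every library, and whose sum was 1012 to 1040 FPKM with DMSO and 1148 to 1207 with the inhibitor. T-cell markers (3 of 6 in the table) summed to at most 0.552 FPKM in any library and myeloid markers (5 of 6) to at most 1.15. Stromal or epithelial markers (7 of 7) summed to 0.0937 to 0.142 FPKM with DMSO and to 3.01 to 4.41 with the inhibitor, most of it KRT18, and trophoblast markers (6 of 8) to 0.533 to 0.647 and 0.959 to 1.27. The part of these markers in the results below was not tested. The labels do not tie the libraries to separate cultures, and the p-values therefore reflect the spread among these libraries, which may be technical. RNA of DNMT1 itself had a mean of 33 ± 0.69 FPKM (SD, n = 3) in DMSO libraries and of 12.7 ± 0.774 in inhibitor libraries.

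Of the 10 genes, 8 could be tested and all 8 rose with the inhibitor, none fell, and ZIM2 and DIRAS3 had too few counts to enter the test. The test was edgeR's quasi-likelihood test over 20783 genes, with p-values adjusted by Benjamini-Hochberg and called at 0.05. Under the same rule 38.1% of all tested genes were called higher and 27.3% lower, 65.4% either way, so a rise was common in this comparison. The 10 genes fell into a set of 7 with a mean under 0.05 FPKM with DMSO (PEG10, SGCE, MEST, PEG3, ZIM2, ZDBF2 and DIRAS3) and a set of 3 with a mean of at least 1 FPKM (PLAGL1, NAP1L5 and NNAT). The 5 tested genes of the first set passed the filter on low counts only through their inhibitor libraries and had to differ, so their calls are read as levels. Of the 1809 tested genes at 0 counts in all DMSO libraries, 100% were called higher. For the second set the fair background is the 1785 tested genes at a mean of 1 to 2 FPKM with DMSO, of which 31.9% were called higher and 13.3% were called higher by at least 2-fold. The 3 genes of that set were all called and all 2-fold or more. In all 8 tested genes every inhibitor library lay above every DMSO library, as it did in 41.7% of all tested genes. In bulk RNA, a change in the share of cells that express a gene and a change in RNA per cell cannot be told apart.

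**Figure D2:**
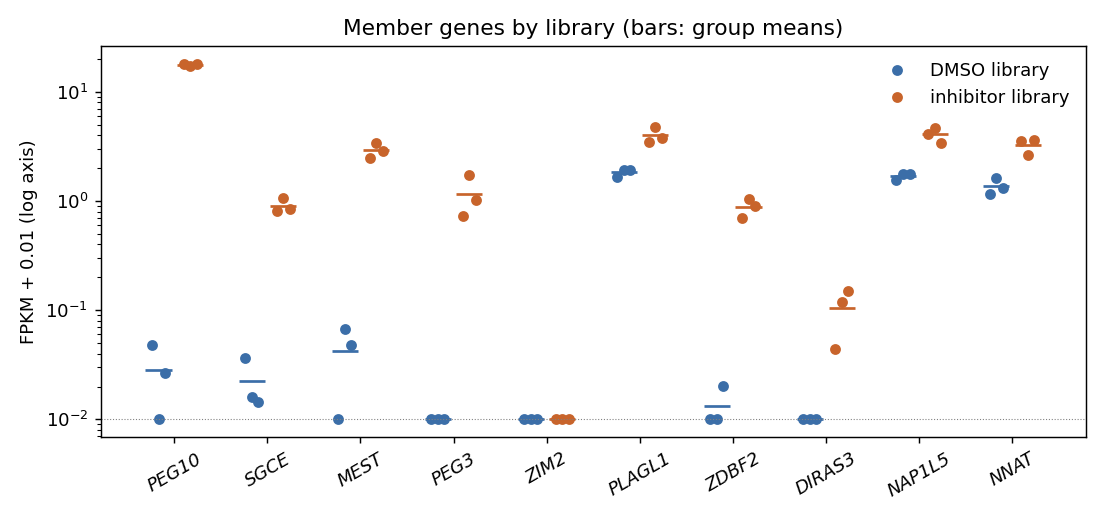
FPKM + 0.01 on a log axis (y axis) for the 10 imprinted genes (x axis) in each of 3 DMSO libraries (blue points) and 3 inhibitor libraries (orange points), with bars at the group means and a dotted line at an FPKM of 0. The inhibitor points lie above the DMSO points for 9 genes, PEG10 reaches 17.1 to 18.1 FPKM, and ZIM2 stays at the dotted line.

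PEG10 (ENSG00000242265, GRCh38 chromosome 7, 94656325 to 94669695, plus strand, protein-coding) encodes a Gag- and Pol-like protein derived from a retrotransposon, is needed for the placenta and is expressed in several cancers. Its FPKM was 0.0385, 0 and 0.0166 in the DMSO libraries and 18.1, 17.1 and 18.1 in the inhibitor libraries. The groups were far apart, 1 DMSO library had no count at all, and the 3 inhibitor libraries differed little, with a coefficient of variation of 3.34%. The log2 fold change was 10.01 (SE 0.278, 95% interval 9.38 to 10.63), a 1030-fold rise, with an edgeR adjusted p of 1.12e-08. The DMSO side rests on 16, 0 and 8 counts, about 6 read pairs, so the size of the fold is less certain than the level with the inhibitor: the log2 fold change was 11.07 without DMSO replicate 1 and 9.34 without DMSO replicate 2. That level, 17.7 ± 0.592 FPKM (SD, n = 3), was at the 90th percentile of all tested genes. Of the 695 tested genes (3.34%) that went from a mean under 0.1 FPKM to at least 1 FPKM, PEG10 ranked 29 by its inhibitor level, and 62 genes (0.298%) reached 10 FPKM from the same start.

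SGCE (ENSG00000127990, chromosome 7, 94524204 to 94656548, minus strand, protein-coding) encodes epsilon-sarcoglycan, a membrane glycoprotein whose loss from the paternal copy causes myoclonus-dystonia. It lies head to head with PEG10: the start sites are 223 bases apart, the gene bodies overlap by 224 bases, and 219 of the 6689 exonic bases of PEG10 in GENCODE 29 (3.27%) are shared with SGCE on the other strand. SGCE had 0.0263, 0.00596 and 0.00445 FPKM with DMSO and 0.794, 1.05 and 0.832 FPKM with the inhibitor. The groups did not overlap, and inhibitor replicate 2 was the highest. SGCE rose with a log2 fold change of 6.19 (SE 0.45, 95% interval 5.18 to 7.21), a 73.2-fold rise, with an edgeR adjusted p of 1.82e-06. The DMSO side rests on 35, 10 and 8 counts, most of them in DMSO replicate 1, without which the log2 fold change was 7.27.

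Both genes of the pair rose, but to different levels. In the inhibitor libraries PEG10 FPKM was 22.8, 16.3 and 21.7 times that of SGCE, a mean ratio of 20.3 ± 3.48 (SD, n = 3). The ratio with DMSO is not given, since both genes were under 0.04 FPKM there. The sources used here do not say whether counting used strand, so reads from the shared 219 bases cannot be told apart.

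MEST (ENSG00000106484, chromosome 7, 130486171 to 130506292, plus strand, protein-coding) encodes a protein of the alpha/beta hydrolase fold found in embryonic mesoderm and in growing fat tissue. Its FPKM was 0, 0.0579 and 0.0377 under DMSO, against 2.49, 3.36 and 2.86 with the inhibitor. The highest DMSO library was well under the lowest inhibitor library. MEST rose with a log2 fold change of 6.29 (SE 0.53, 95% interval 5.10 to 7.49), a 78.3-fold rise, with an edgeR adjusted p of 4.88e-06, and it was 7.03 without DMSO replicate 2, which holds 24 of the 38 DMSO counts. The antisense RNA MESTIT1, which shares 484 exonic bases with MEST in GENCODE 29, was at 0.0124 ± 0.0121 FPKM with DMSO and 0.00948 ± 0.0164 with the inhibitor and was not tested.

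Among the zinc finger genes, PEG3 (ENSG00000198300, chromosome 19, 56810077 to 56840728, minus strand, protein-coding) encodes a Kruppel-type zinc finger protein tied to maternal behaviour and cell death in mice. No count was found in any DMSO library, and FPKM was 0.726, 1.72 and 1.01 with the inhibitor. The 3 inhibitor libraries were all above 0 and varied more than those of any other tested member, with a coefficient of variation of 44.5% and the highest value in replicate 2. Against a floor of 3 read pairs (12 counts) over the DMSO group, PEG3 was at least 205-fold higher, with an edgeR adjusted p of 3.38e-06.

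ZIM2 (ENSG00000269699, chromosome 19, 56774547 to 56840731, minus strand, protein-coding), another zinc finger gene, starts 3 bases from PEG3 and shares 1264 of its 3066 exonic bases (41.2%) with it on the same strand. ZIM2 was at 0 counts in every DMSO library and at 1, 0 and 1 counts in the inhibitor libraries, under the floor of 12 counts over a group. Its RNA was therefore not detectable at this depth in either group. The sharing of exons limits the contrast with PEG3, since reads from the shared bases could have been given to either gene.

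PLAGL1 (ENSG00000118495, chromosome 6, 143940300 to 144064599, minus strand, protein-coding), also called ZAC1, encodes a zinc finger transcription factor that slows growth and is overexpressed in transient neonatal diabetes. It was already expressed with DMSO, at 1.65, 1.92 and 1.91 FPKM, and had 3.45, 4.79 and 3.75 FPKM with the inhibitor. The groups did not overlap. The log2 fold change was 1.11 (SE 0.126, 95% interval 0.83 to 1.40), a 2.17-fold rise, with an edgeR adjusted p of 3.49e-05. HYMAI, the noncoding RNA that begins within PLAGL1 and shares 289 exonic bases with it, was at 0.0178 ± 0.0194 FPKM with DMSO and 0.0103 ± 0.0172 with the inhibitor and was not tested.

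ZDBF2 (ENSG00000204186, chromosome 2, 206274663 to 206314427, plus strand, protein-coding) encodes a DBF-type zinc finger protein that promotes growth after birth in mice. Its FPKM was 0, 0 and 0.0102 in DMSO cells and 0.686, 1.04 and 0.889 in inhibitor cells. All 3 inhibitor libraries lay above the DMSO libraries, of which 2 had no count. The DMSO sum was 8 counts, about 2 read pairs, and the ratio of inhibitor to DMSO was 258 with a counting interval of 70.9 to 2136, which covers counting error only. The edgeR adjusted p was 3.47e-06. All 8 DMSO counts lie in replicate 3, so without it the DMSO group is at 0.

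DIRAS3 (ENSG00000162595, chromosome 1, 68045886 to 68051717, minus strand, protein-coding), also known as ARHI, encodes a Ras-like GTPase that restrains growth and is often silenced in breast and ovarian cancers. It was at 0 in every DMSO library and at 0.0341, 0.109 and 0.141 FPKM with the inhibitor, from 6, 19 and 22 counts. The groups did not overlap, but the counts were too low for the gene to pass the filter of the main fit, which gave no adjusted p. Against the floor of 12 counts its level was at least 4.66-fold higher. DIRAS3 lies wholly inside the antisense gene GNG12-AS1 without sharing exonic bases, and GNG12-AS1 was listed at 0 with DMSO and had 0.0373 ± 0.0243 FPKM with the inhibitor.

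NAP1L5 (ENSG00000177432, chromosome 4, 88695913 to 88697829, minus strand, protein-coding) is a short gene of the nucleosome assembly protein family that lies inside HERC3 on the other strand, in GENCODE 29 without shared exonic bases. Its FPKM was 1.56, 1.75 and 1.76 under DMSO, against 4.12, 4.69 and 3.39 with the inhibitor. All inhibitor libraries were above all DMSO libraries. NAP1L5 rose with a log2 fold change of 1.26 (SE 0.175, 95% interval 0.86 to 1.65), 2.39-fold, with an edgeR adjusted p of 0.000147.

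NNAT (ENSG00000053438, chromosome 20, 37521206 to 37523690, plus strand, protein-coding) encodes neuronatin, a small membrane proteolipid of brain and endocrine cells, and lies inside BLCAP on the other strand, sharing 85 of 1332 exonic bases (6.38%). Its FPKM was 1.16, 1.61 and 1.31 in DMSO cells and 3.55, 2.65 and 3.62 in inhibitor cells. The groups did not overlap, and replicate 2, the highest inhibitor library for 6 members, was here the lowest. NNAT rose with a log2 fold change of 1.27 (SE 0.221, 95% interval 0.77 to 1.76), 2.4-fold, with an edgeR adjusted p of 0.000655.

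**Figure D3:**
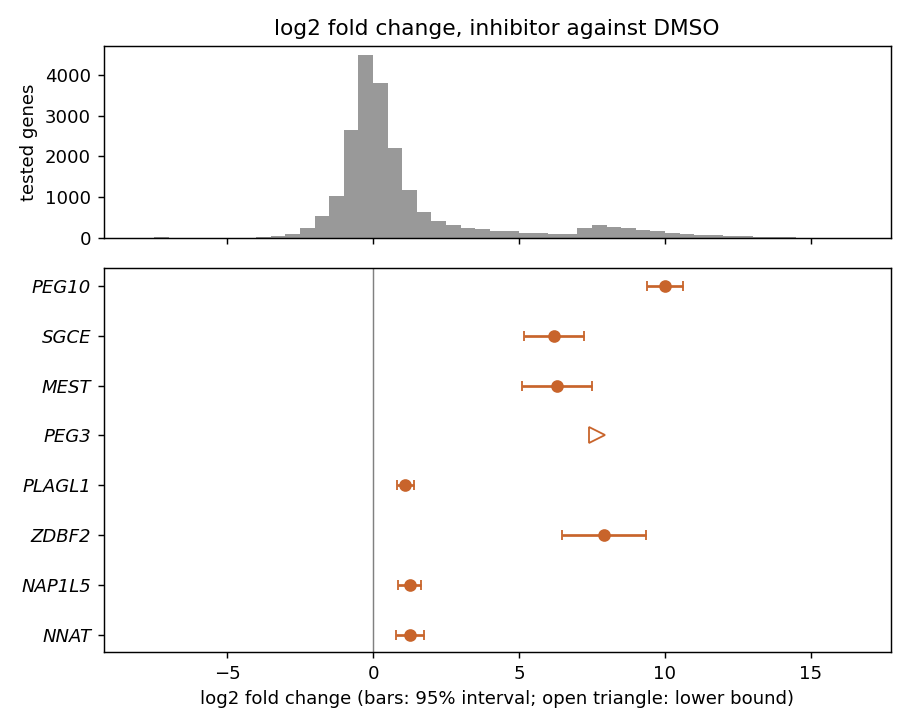
Log2 fold change of inhibitor against DMSO (x axis) from edgeR: above, the number of tested genes per bin of all 20783; below, the 8 tested imprinted genes with 95% intervals (bars) and an open triangle at the lower bound for PEG3. PLAGL1 (1.11), NAP1L5 (1.26) and NNAT (1.27) lie close together, apart from PEG10 (10.01), ZDBF2, MEST (6.29) and SGCE (6.19), which start near 0.

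By level with the inhibitor the order was PEG10 (17.7 FPKM), NAP1L5 (4.06 ± 0.653), PLAGL1 (4 ± 0.703), NNAT (3.28 ± 0.541), MEST (2.9 ± 0.435), PEG3 (1.15 ± 0.513), SGCE (0.891 ± 0.136), ZDBF2 (0.871 ± 0.176), DIRAS3 (0.0947 ± 0.0549) and ZIM2. Library values of neighbours in that order overlapped from NAP1L5 to MEST and from PEG3 to ZDBF2. Gaps with no overlap lay between PEG10 and NAP1L5, between MEST and PEG3, between ZDBF2 and DIRAS3, and between DIRAS3 and ZIM2. With DMSO, PLAGL1 (1.83 ± 0.154 FPKM), NAP1L5 (1.69 ± 0.114) and NNAT (1.36 ± 0.229) overlapped as neighbours in the order and stood apart from the other 7 genes.

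The summed FPKM of the 10 genes was 4.44, 5.35 and 5.05 under DMSO, against 33.9, 36.5 and 34.6 with the inhibitor. PEG10 made up 46.8% to 53.3% of the sum with the inhibitor, so the sum follows PEG10. Of the 9 genes with inhibitor counts above the floor, replicate 2 was the highest library for 6 and replicate 1 the lowest for 6. The library and its treatment label cannot be told apart in this order. With inhibitor replicate 1 alone against the 3 DMSO libraries, the log2 fold change was 10.06 for PEG10, 0.93 for PLAGL1, 1.30 for NAP1L5 and 1.41 for NNAT. In that fit the lone library is assumed to vary like the DMSO libraries.

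Locus lists drawn around the 8 loci held 68 other genes in the table, of which 53 were tested, 23 rose, 15 fell and 15 were not called. That is 43.4% higher and 28.3% lower, against 38.1% and 27.3% of all tested genes, and their median log2 fold change was 0.17, against 0.14 over all tested genes. Of the 53, 6 were at 0 counts in all DMSO libraries and could be called only higher. Taking instead the 5 nearest genes on each side of each locus, 46 of 80 were tested, 18 rose, 5 fell and 23 were not called, with a median of 0.23. Of these 46, 5 were at 0 counts in all DMSO libraries. By locus, none fell at PEG10-SGCE (3 of 6 rose), PEG3-ZIM2 (3 of 5), MEST (2 of 4) and NAP1L5 (3 of 6). At PLAGL1, 2 of 9 rose and 1 fell, and at ZDBF2 1 of 5 rose and 1 fell. At DIRAS3, 3 of 6 rose and 2 fell, and at NNAT 1 of 5 rose and 1 fell. The neighbours counted by locus below are those of the locus lists, some of which lie beyond the 5 nearest genes.

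At PEG10-SGCE, 6 of 8 tested neighbours of the locus list rose and none fell, against 38.1% higher and 27.3% lower over all tested genes. Of the 8, 3 were at 0 counts in all DMSO libraries and could be called only higher. TFPI2 and COL1A2 held only 5 and 15 counts over the DMSO group. PON2, a paraoxonase that limits oxidative damage, was at 0 counts in every DMSO library and at 3.19 ± 0.213 FPKM with the inhibitor, at least 223-fold higher (edgeR adjusted p = 1.09e-07). TFPI2, a protease inhibitor that is maternally expressed in placenta, had 0.00819 ± 0.0142 FPKM with DMSO and 2.39 ± 0.424 with the inhibitor (edgeR adjusted p = 2.27e-06). PPP1R9A, a neuronal actin-binding protein imprinted in placenta, went from 0 counts to 0.493 ± 0.0667 FPKM, at least 100-fold higher, and COL1A2, a collagen chain, from 0.0059 ± 0.00221 to 0.343 ± 0.0895. CASD1, a sialic acid acetyltransferase gene that overlaps the far end of SGCE on the other strand, was already at 7.86 ± 0.267 FPKM and rose to 9.86 ± 0.612, a log2 fold change of 0.32. BET1 (log2 fold change 0.06) and ASB4 (1.03, edgeR adjusted p = 0.106) were not called.

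At PEG3-ZIM2, 3 of 5 tested neighbours rose and none fell, against 38.1% higher and 27.3% lower over all tested genes. Of the 5, 1 was at 0 counts in all DMSO libraries and could be called only higher. SMIM17 and AURKC held only 23 and 36 counts over the DMSO group and passed the filter on low counts only through their inhibitor libraries. The 3 calls are therefore read as levels. AURKC, a kinase of meiosis, went from 0.0925 ± 0.0179 to 3.82 ± 0.735 FPKM, a log2 fold change of 5.28 (edgeR adjusted p = 2.33e-07), and ended above PEG3 itself. ZNF471 went from 0 counts with DMSO to 0.416 ± 0.165 FPKM. ZNF264 (log2 fold change 0.20) and ZNF71 (-0.14) were not called, and the imprinted gene USP29 had 8 counts with DMSO and 10 with the inhibitor and was not tested.

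At DIRAS3, 4 of 6 tested neighbours rose and 2 fell, against 38.1% higher and 27.3% lower over all tested genes. Of the 6, 2 were at 0 counts in all DMSO libraries and could be called only higher. GNG12, a G protein gamma subunit, was at 0 counts with DMSO and at 1.78 ± 0.15 FPKM with the inhibitor, at least 152-fold higher (edgeR adjusted p = 2.61e-07), and the Wnt carrier WLS went from 0 counts to 0.67 ± 0.114 FPKM. GNG12 thus ended far above DIRAS3, which has the same start at 0. GADD45A, a stress-induced gene, rose with a log2 fold change of 0.95, and DEPDC1, a gene of dividing cells, fell by 2.03 on the log2 scale, from 5.65 ± 0.154 to 1.39 ± 0.612 FPKM.

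Counts at the remaining loci stand against 38.1% higher and 27.3% lower over all tested genes. At PLAGL1, 1 of 7 tested neighbours rose and 3 fell. Those that fell were STX11, a syntaxin of immune cells (log2 fold change -1.45), HIVEP2, a zinc finger protein (-1.12), and FUCA2, a fucosidase (-0.96). At NNAT, 1 of 7 rose and 3 fell, among them TTI1 (-1.02) and RPRD1B (-0.70). At NAP1L5, 5 of 11 rose and 4 fell, and those that rose included HERC5, an interferon-induced ligase (2.16), TIGD2 (1.31) and PKD2 (0.64). At ZDBF2, 1 of 6 rose and 3 fell, with EEF1B2, a translation elongation factor, from 103 ± 0.415 to 272 ± 10.7 FPKM (log2 fold change 1.39) and INO80D lower (-1.08). At MEST, 2 of 3 rose, COPG2 and COPG2IT1. The latter, an imprinted RNA within COPG2, went from 0.00711 ± 0.000937 to 0.136 ± 0.0668 FPKM, a call lost with inhibitor replicate 1 alone. COPG2IT1 held only 12 counts over the DMSO group and passed the filter on low counts only through its inhibitor libraries.

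**Figure D4:**
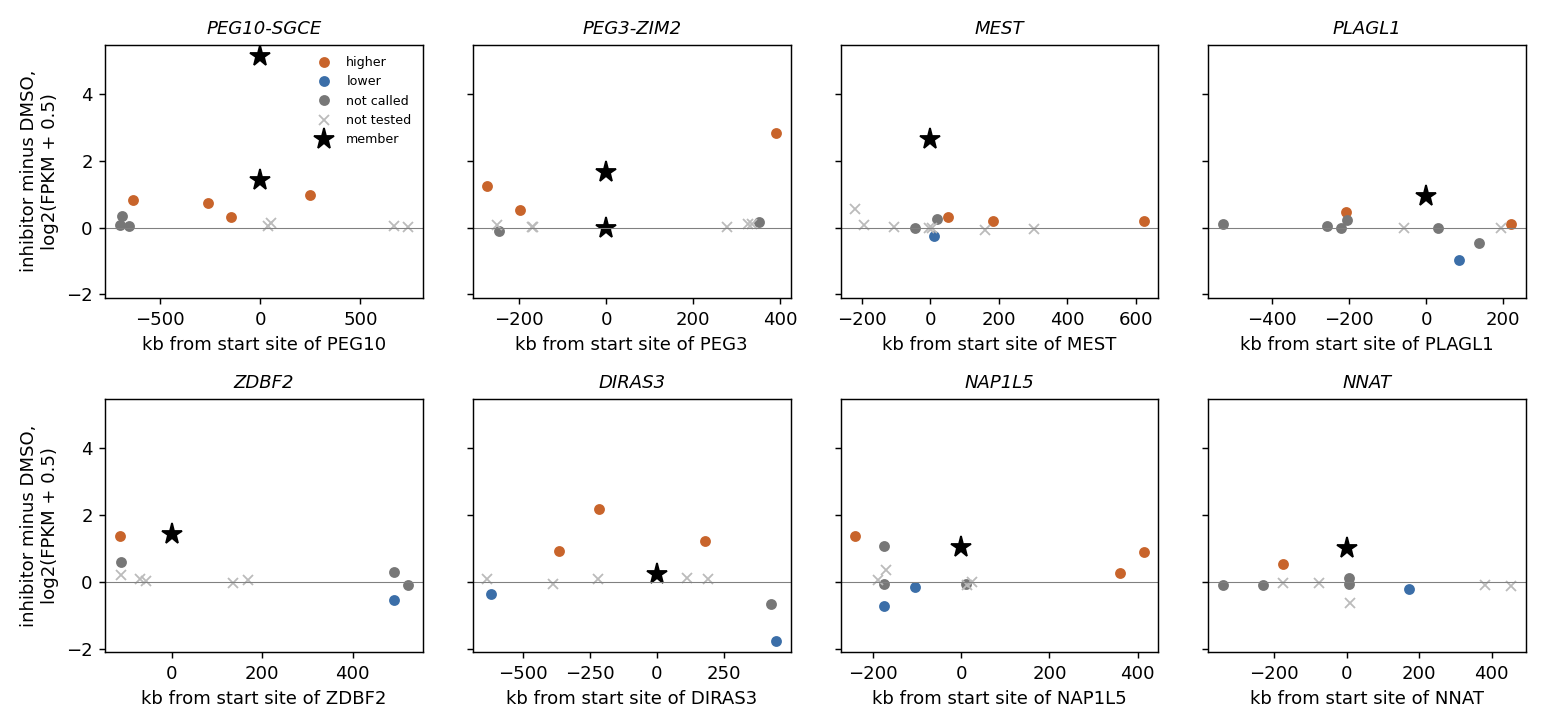
Difference in mean log2(FPKM + 0.5), inhibitor minus DMSO (y axis), of the 5 nearest genes on each side of each of the 8 loci, and of any gene overlapping it, against distance of their start sites in kb from the member's start site (x axis). Stars are the imprinted genes, circles tested neighbours coloured by call and crosses neighbours not tested; neighbours lie on both sides of 0, from -1.76 for DEPDC1 to 2.85 for AURKC, and PEG10 lies highest at 5.14.

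Partners of the members were taken from each locus. BLCAP, which surrounds NNAT, was at 15.9 ± 0.132 FPKM with DMSO and 17.2 ± 0.898 with the inhibitor, with a log2 fold change of 0.11 and an edgeR adjusted p of 0.0578, and was called in 5 of 17 alternative analyses. HERC3 (the row ENSG00000138641), which surrounds NAP1L5 and encodes a ubiquitin ligase, was at 4.96 ± 0.378 and 4.4 ± 0.113 FPKM, with a log2 fold change of -0.18 and an edgeR adjusted p of 0.0428, a call that was lost in 16 of 17 alternative analyses. A further HERC3 row, ENSG00000287542, also contains NAP1L5 and had 0.321, 0.691 and 1.24 FPKM in DMSO libraries against 0.19, 0.202 and 0.289 in inhibitor libraries. Its groups did not overlap, and it fell by 1.73 on the log2 scale (SE 0.439, edgeR adjusted p = 0.0061), a call lost with inhibitor replicate 1 alone (adjusted p = 0.0807). COPG2, a coat protein subunit whose end overlaps that of MEST, with 228 shared exonic bases in GENCODE 29, was at 5.98 ± 0.261 and 6.91 ± 0.209 FPKM, with a log2 fold change of 0.20 and an edgeR adjusted p of 0.0241, lost in 5 of 17. PHACTR2, beside PLAGL1, had a log2 fold change of 0.17 and was not called (edgeR adjusted p = 0.229).

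Ratios within each library were compared for the 3 members expressed with DMSO, since for the other members the DMSO ratio is set by the pseudocount. The log2 ratio of NNAT to BLCAP (FPKM + 0.5) was -3.31, -2.95 and -3.19 in DMSO cells and -2.06, -2.57 and -2.09 in inhibitor cells, a difference of 0.91. NAP1L5 to HERC3 (ENSG00000138641) gave -1.52, -1.24 and -1.20 against -0.08, 0.11 and -0.37, a difference of 1.21. PLAGL1 to PHACTR2 gave 0.46, 0.73 and 0.81 against 1.40, 1.73 and 1.33, a difference of 0.82. In these 3 pairs the groups did not overlap. With 3 libraries against 3, an exact two-sided permutation test can go no lower than p = 0.1, the value each pair gave (0.114 adjusted over the 8 pairs computed). This test therefore cannot show at 0.05 that a pair changed unequally, and no other test of the ratios was made.

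**Figure D5:**
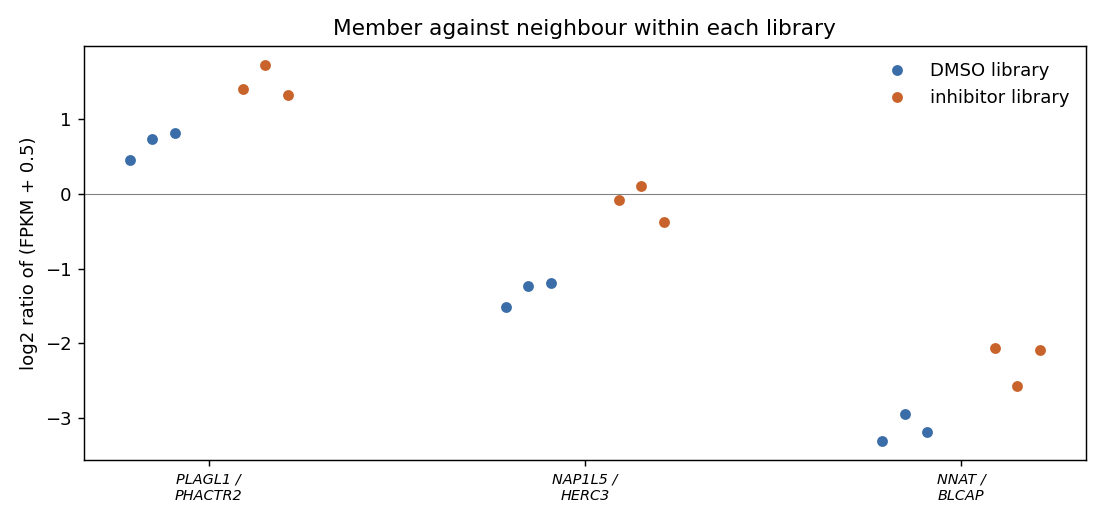
Log2 ratio of FPKM + 0.5 of the imprinted gene to its neighbour (y axis) for the 3 pairs whose imprinted gene was expressed with DMSO (x axis), in each DMSO library (blue) and inhibitor library (orange). The inhibitor points lie above the DMSO points in each pair, by a mean of 0.82 for PLAGL1 to PHACTR2, 1.21 for NAP1L5 to HERC3 and 0.91 for NNAT to BLCAP.

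Other imprinted genes gave a wider frame. Of 20 other paternally expressed genes in the table, 14 were tested, 10 rose and none fell, against 38.1% of all tested genes higher and 27.3% lower, with a median log2 fold change of 1.99. Of the 14, 5 were at 0 counts in all DMSO libraries and could be called only higher. FAM50B went from 0 counts to 1.58 ± 0.325 FPKM (at least 56.1-fold higher), MKRN3, a ubiquitin ligase tied to the timing of puberty, from 0 to 1.05 ± 0.184 (at least 135-fold), NDN from 0 to 1.09 ± 0.539 (at least 37.7-fold), and L3MBTL1, a chromatin reader, rose with a log2 fold change of 1.98. Of 14 maternally expressed genes, 11 were tested, 10 rose and 1, UBE3A, fell (log2 fold change -0.13, 0.04 with upper-quartile scaling), beside the same shares of all tested genes. Of the 11, 5 were at 0 counts in all DMSO libraries and could be called only higher. Their median was 9.34, or 4.85 with genes at 0 counts in DMSO set to their lower bound, against 0.14 over all tested genes either way. The long noncoding RNA MEG3 was at least 1830-fold higher, and the cell cycle inhibitor CDKN1C at least 100-fold. H19 went from 0.00444 ± 0.00769 to 21.4 ± 3.71 FPKM, with only 3 counts over the DMSO group. TFPI2 and PPP1R9A stand both in this list and among the neighbours of PEG10. These are counts within lists, and no test of paternally against maternally expressed genes was made.

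A list of genes that maintain, protect or remove DNA methylation had 17 in the table, of which 16 were tested, 9 fell (7 with upper-quartile scaling), 3 rose and 4 were not called, against 27.3% lower and 38.1% higher over all tested genes, with a median log2 fold change of -0.26. HELLS, the remodeller that helps DNMT1 reach DNA, fell by 2.03 on the log2 scale, and DNMT1 fell by 1.38. SMCHD1, a structural maintenance protein of the silent X chromosome and of imprinted genes, fell by 0.94, and the methylcytosine oxidase TET3 by 0.96. ZFP57, the factor that binds TGCCGC, was at 0 counts in every DMSO library and at 0.77 ± 0.152 FPKM with the inhibitor, at least 29.3-fold higher. Another zinc finger gene, ZNF445, was not called (log2 fold change 0.06).

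Relatives of PEG10 among Gag-derived genes were also followed. Of 10 in the table, 8 were tested and all 8 rose, against 38.1% of all tested genes, with a median log2 fold change of 9.12, or 4.52 with genes at 0 counts in DMSO at their lower bound. ARC, which forms capsid-like particles in neurons, went from 0 counts to 7.56 ± 0.556 FPKM, at least 409-fold higher, RTL6 to 1.24 ± 0.0743, RTL8A to 1.41 ± 0.319 and RTL8C to 1.13 ± 0.0488. RTL8A and RTL8C are near-identical copies, so reads may be split between them. Of these 8 genes, 6 were at 0 counts in all DMSO libraries and so could pass the filter only by being higher with the inhibitor.

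Partners of SGCE in the sarcoglycan and dystrophin complex moved in both directions. Of 13 in the table, 8 were tested, 3 rose, 3 fell and 2 were not called, with a median of -0.26. That is 37.5% higher and 37.5% lower, against 38.1% and 27.3% of all tested genes. Of the 8, 2 were at 0 counts in all DMSO libraries and could be called only higher. DAG1 rose with a log2 fold change of 0.20 (edgeR adjusted p = 0.0361), a call kept in 7 of 17 alternative analyses. Beta-sarcoglycan, SGCB, went from 0 counts to 0.7 ± 0.15 FPKM, at least 55.1-fold higher, whereas the syntrophins SNTB2 and SNTB1 fell by 1.25 and 0.80 on the log2 scale. Among the other family relatives of the members, 5 of 7 were tested. DIRAS1, the relative of DIRAS3, rose with a log2 fold change of 2.34 and NAP1L1 with 0.30, while NAP1L4 and PLAGL2 fell by 0.79 and 0.31, and PLAG1 was not called.

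Genes with values most like a member over the 6 libraries were ranked by Euclidean distance of log2(FPKM + 0.5). For PEG10 they were RFPL4B (0.16), AKAP12 (0.19) and ULBP1 (0.24), which reached 17 to 18.8 FPKM from at most 0.0276. For MEST they were KLHL13 (0.14), CDO1 (0.19) and KDM5B (0.19), and for PEG3 ARMCX2 (0.08), NOG (0.12) and KLF2P1 (0.17). PLAGL1 was nearest to EGR2 (0.25), S100A13 (0.26) and ENSG00000272836 (0.26), NAP1L5 to FUT7 (0.21), HBEGF (0.24) and TASL (0.24), and NNAT to ENSG00000260510 (0.38), PIGQ (0.39) and AP4M1 (0.4). None of them lay on the chromosome of the member it was matched to. The distances describe 6 libraries in 2 groups and carry no test.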

How the data were processed

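RNA of 3 DMSO and 3 inhibitor libraries of SU-DHL-8 was measured by poly(A) sequencing with dUTP strand marking and paired reads, per the labels' protocols. The table deposited by the authors holds estimated counts and FPKM values per gene, per the file headers. The submitters' processing notes name cutadapt 1.9, HISAT2 2.2.1, StringTie 2.1.6, DESeq2, edgeR and the build mm10, with no role. The deposited IDs are human, 34105 of 35974 matched GENCODE 29, and coordinates are read as GRCh38. The sources used here do not say how counts were scaled. Peaks at counts of 4, 8 and 12 (1319.8 genes per library at 4, 725.8 at 3 and 474.5 at 5) led to taking 4 counts as about 1 read pair. Counts of 1 and 2 were also common (1131.8 and 937.2 genes per library), so this step is approximate.

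Counts were tested with edgeR 4.0.16 in R 4.3.3 (filterByExpr, TMM, quasi-likelihood, no replicate block), with Benjamini-Hochberg adjustment over 20783 genes. Depth limits low genes: 3 read pairs, 12 counts over a group, were the floor for lower bounds, and intervals cover counting error only. Ratios of neighbours used log2(FPKM + 0.5) and exact permutation tests. Alternatives were other normalizations, filters, DESeq2 1.42.0, limma 3.58.1 on log2(FPKM + 0.5), counts divided by 4, a replicate block, leaving out each library, and inhibitor replicate 1 alone. The code was tested on simulated data.

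All members are named. Up to 3 called genes per locus and 4 per list were taken by size of change among those of at least 1 FPKM in a group, with pair partners and the 3 most similar genes for each member of at least 1 FPKM; PPP1R9A, COL1A2, ZNF471, WLS, COPG2IT1, ZFP57, SGCB and the genes given as not called or not tested were chosen after their values were seen. The members and lists were chosen with earlier results of these data known. Same-numbered libraries did not deviate together (correlations over genes 5e-04, 0.0211 and 0.0027), so numbers were not taken as pairs.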

Additional observations from a re-analysis of the deposited data

How the results depend on the processing

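All 133 alternative values of the 8 tested imprinted genes kept their direction and their call. For PEG10, SGCE, MEST, PEG3 and ZDBF2 this says little, since they passed the filter only through their inhibitor libraries and had to differ. The calls of PLAGL1, NAP1L5 and NNAT, each kept in 17 of 17 alternatives, were free to change. The log2 fold change ran from 4.20 to 11.07 for PEG10, 0.90 to 7.27 for SGCE, 1.91 to 7.03 for MEST, 1.08 to 12.79 for PEG3, 0.89 to 12.26 for ZDBF2, 0.81 to 1.29 for PLAGL1, 0.91 to 1.43 for NAP1L5 and 0.85 to 1.44 for NNAT, with the low ends of the near-silent genes from limma, whose pseudocount shrinks them. Of the values for neighbours and list genes, 1004 of 1052 kept both. Under upper-quartile scaling all genes shifted by a median of 0.17, and UBE3A then turned to 0.04.

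The filter at 1 FPKM kept genes that reached 1 FPKM in at least 3 libraries, and limma those that reached 0.5 FPKM in at least 3. Both remove weakly expressed genes, whereas a gene silent with DMSO stays if its inhibitor libraries reach the cutoff. With the filter at 1 FPKM, 4826 genes were higher, as were 5 of 5 members left, 14 genes of the locus lists, 8 nearest genes, 4 other paternally and 6 maternally expressed genes, 1 sarcoglycan gene and 5 Gag-derived genes. With limma at pseudocounts of 0.5, 0.1 and 1, 5260, 5233 and 5259 genes were higher, with 13 of the locus lists, 9 nearest genes, 6 other paternally and 6 maternally expressed genes each time, and 1 sarcoglycan gene at 0.5 and 0.1. Without a filter, 4 other family relatives were higher. All 10 members were then tested and 9 were called higher, as with DESeq2. ZIM2 and DIRAS3, at 0 counts with DMSO, could be called only higher there. The count of maternally expressed genes that fell was 0 with upper-quartile scaling, the filter at 1 FPKM, limma at each pseudocount, counts divided by 4 and inhibitor replicate 1 alone, and 0 to 1 with libraries left out in turn, being 0 without DMSO replicate 3. For ratios inhibitor minus DMSO, which in these 5 pairs hold a gene near 0 with DMSO and depend on the pseudocount, pseudocounts of 0.1 and 1 gave 4.11 and 3.30 for PEG10 to SGCE, 3.57 and 1.08 for PEG3 to ZIM2, 4.32 and 1.73 for MEST to COPG2, 1.82 and -0.50 for ZDBF2 to EEF1B2, and -3.31 and -1.34 for DIRAS3 to GNG12.

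With a replicate block, all 8 tested imprinted genes were called higher, among 7448 higher and 5368 lower genes. The 5 of them that were near silent with DMSO again had to differ. The numbers name libraries only, and the correlations of same-numbered libraries were 5e-04, 0.0211 and 0.0027. At 13461507 to 18826110 read pairs per library, ZIM2 and DIRAS3 were too low to test in the main fit, and folds of genes at under 12 counts with DMSO are limited by that count.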
